A study of Mus musculus with 8 samples.

Results

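The *Cyp3a* genes encode the 3A subfamily of cytochrome P450, and 9 protein-coding members on mouse chromosome 5 were examined among the 21887 protein-coding genes of the reference: *Cyp3a11*, *Cyp3a13*, *Cyp3a16*, *Cyp3a25*, *Cyp3a41a*, *Cyp3a41b*, *Cyp3a44*, *Cyp3a57* and *Cyp3a59*. The family was chosen by measured values of the same libraries, among them an EBF2 peak at *Cyp3a41a* that was listed in the control cells and not in the knockout cells, so these patterns are given as a description. The cells were brown adipocytes (BAC): precursors isolated from the interscapular depot of newborns with floxed *Cars2* alleles (*Cars2* flox/flox) had received SV40 large T antigen for immortalization and a retrovirus, and were then differentiated. All groups shared the floxed alleles, the immortalization and the differentiation with IBMX, indomethacin, dexamethasone, insulin and T3. Vec cells carried the empty vector (cell line BAC-V, genotype given as WT), and Cre cells carried Cre recombinase (cell line BAC-Cre, genotype given as CarS2-KO). Binding of EBF2, a transcription factor of the brown fat lineage, and the acetylated histone H3K27ac, a mark of active promoters and enhancers, were profiled by Cut & Tag, in which an antibody directs a transposase to cut the DNA next to its target. There were 2 libraries for each antibody and cell line, 8 in all, each from 50000 cells. The labels do not say that the 2 libraries of a group came from separate cultures, so the spread between them may be technical. Each library was deposited as a list of peaks, which are stretches where the reads exceeded the caller's background.

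CYP3A enzymes are membrane-bound monooxygenases of the endoplasmic reticulum, best known in the liver and intestine, where they oxidize drugs, steroids and bile acids. They take electrons from cytochrome P450 reductase, encoded by *Por*, and can be stimulated by cytochrome b5. Their transcription in the liver responds to the xenobiotic receptor PXR (*Nr1i2*) and to CAR (*Nr1i3*), which bind as heterodimers with RXR, and several of the mouse genes differ between the sexes. Brown fat is not a tissue in which the family is usually studied.

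*Cyp3a13* stood alone at chr5:137892933-137925610 (GRCm38, the assembly also named mm10). The other 8 genes formed a run of 770 kb at chr5:145345149-146114978. In order of position, these were *Cyp3a57*, *Cyp3a16*, *Cyp3a41b*, *Cyp3a41a*, *Cyp3a44*, *Cyp3a11*, *Cyp3a25* and *Cyp3a59*, with gaps of 45.4 to 109 kb between neighbours. The widest gap, 109 kb, lay between *Cyp3a41b* (chr5:145558664-145584732) and *Cyp3a41a* (chr5:145694049-145720136). Both genes are on the minus strand, so the start site of *Cyp3a41a* is at 145720136, its high-coordinate end, and that of *Cyp3a41b* is at 145584730.

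*Cyp3a41a* and *Cyp3a41b* are close copies, and their promoters (250 bases before to 50 bases after the start site, RefSeq, GRCm38.p6) are shown because EBF2 peaks separated the Vec lists from the Cre lists at the first, and at the second were missing from 1 Vec list only. The promoters of *Cyp3a44* and *Cyp3a16* follow as the nearest relatives with no peak. Each is printed on the minus strand, 5′ to 3′. Capitals mark bases that differ from *Cyp3a41b* in the first sequence and from *Cyp3a41a* in the others. The block of capitals near the end of *Cyp3a41b* is an insertion in a repeat, where its exact place is arbitrary.
Cyp3a41a promoter, chr5:145720087-145720386: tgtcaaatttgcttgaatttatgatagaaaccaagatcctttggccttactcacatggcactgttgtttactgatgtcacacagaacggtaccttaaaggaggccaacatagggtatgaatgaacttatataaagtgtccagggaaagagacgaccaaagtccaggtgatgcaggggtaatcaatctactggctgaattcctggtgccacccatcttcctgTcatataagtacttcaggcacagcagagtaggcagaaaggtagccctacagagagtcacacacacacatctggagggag
Cyp3a41b promoter, chr5:145584681-145584980: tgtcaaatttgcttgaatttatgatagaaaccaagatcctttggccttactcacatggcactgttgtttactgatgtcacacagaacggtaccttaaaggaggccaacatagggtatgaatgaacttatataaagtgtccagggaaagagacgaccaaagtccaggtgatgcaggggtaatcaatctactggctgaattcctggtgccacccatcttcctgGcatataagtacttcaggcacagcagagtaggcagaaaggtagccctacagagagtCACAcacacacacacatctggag
Cyp3a44 promoter, chr5:145805825-145806124: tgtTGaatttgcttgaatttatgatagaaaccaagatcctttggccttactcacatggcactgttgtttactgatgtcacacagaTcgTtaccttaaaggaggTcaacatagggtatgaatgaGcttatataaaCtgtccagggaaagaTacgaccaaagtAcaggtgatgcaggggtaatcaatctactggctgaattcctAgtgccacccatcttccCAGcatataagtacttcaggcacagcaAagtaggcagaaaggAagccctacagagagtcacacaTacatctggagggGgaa
Cyp3a16 promoter, chr5:145469674-145469973: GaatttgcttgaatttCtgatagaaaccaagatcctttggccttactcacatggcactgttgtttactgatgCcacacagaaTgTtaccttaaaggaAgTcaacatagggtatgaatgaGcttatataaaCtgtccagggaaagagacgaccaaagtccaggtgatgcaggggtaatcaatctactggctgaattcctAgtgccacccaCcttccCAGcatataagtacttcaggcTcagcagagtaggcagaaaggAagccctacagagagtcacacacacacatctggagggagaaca

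The promoters of *Cyp3a41a* and *Cyp3a41b* were identical in 98.3% of 300 aligned columns, with 1 mismatch and 4 gap columns. *Cyp3a16* matched *Cyp3a41a* in 94.6% of columns and *Cyp3a44* matched it in 93.7%. *Cyp3a11*, which encodes the major CYP3A enzyme of mouse liver, matched it in 74.0%. *Cyp3a25*, *Cyp3a57* and *Cyp3a59* formed a second set, with 90.3 to 96.3% identity among themselves and 53.7 to 54.3% to *Cyp3a41a*. *Cyp3a13* had 51.4 to 56.2% identity to the other 8 promoters. How reads with several equal matches were placed is not given in the sources used here, so reads from stretches that the copies share may not belong to one of them alone.

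**Figure D1:**
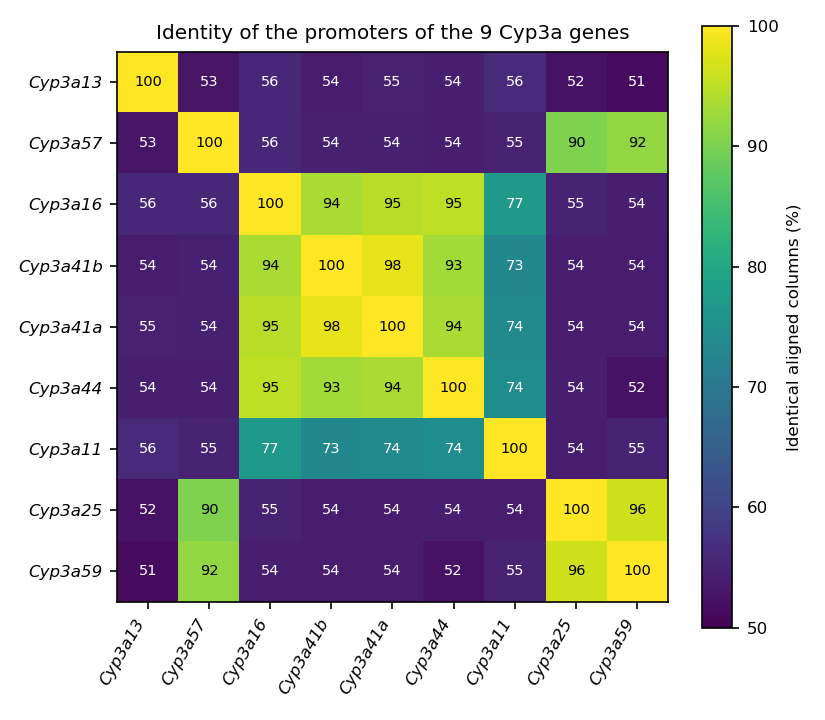
Share of identical columns (%) in pairwise alignments of the promoters of the 9 *Cyp3a* genes, ordered by position on chromosome 5. *Cyp3a16*, *Cyp3a41b*, *Cyp3a41a* and *Cyp3a44* form a block of 93.0 to 98.3%, and *Cyp3a57*, *Cyp3a25* and *Cyp3a59* one of 90.3 to 96.3%.

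Short motifs were searched on both strands of these promoters. The core of the EBF motif, CCCNNGGG, which is its own reverse complement, was in none of the 9 promoters and in 15.6% of the 21263 promoters of protein-coding genes. The nuclear receptor half-site AGGTCA was in 5 of the 9 (*Cyp3a11*, *Cyp3a25*, *Cyp3a44*, *Cyp3a57* and *Cyp3a59*), and in 14.7% of all promoters. Its variant AGTTCA was in 3 of the 9 (*Cyp3a11*, *Cyp3a41a* and *Cyp3a41b*), and in 12.5% of all promoters. In *Cyp3a41a* and *Cyp3a41b* it began 130 bases before the start site, on the opposite strand, as the letters tgaact of the printed sequences. Motifs overlapping the window's ends were not counted, and a match of such short letters is a description only. Only these promoters were searched, so the motif content of the EBF2 peaks outside them is not known here. The promoters of *Cyp3a25*, *Cyp3a57* and *Cyp3a59*, and those of *Cyp3a41a* and *Cyp3a41b*, are close copies. Matches in such copies are not independent of each other.

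The 8 lists held 533 to 902 peaks and covered 81.2 to 115 Mb, with median widths of 3.44 to 14.5 kb and single peaks of up to 7.71 Mb. EBF2 Vec replicate 2 stood apart, with 533 peaks and a caller's background of 1.39 fragments, against 7.38, 8.26 and 8.76 in the other EBF2 libraries. None of the 12 brown adipocyte marker genes, among them *Ucp1*, *Cidea*, *Pparg* and *Ebf2* itself, had a peak within 10 kb in any list, beside 8.89% of all protein-coding genes with one in at least 1 list. Of 8 hepatocyte markers 1 (*Serpina1a*) had a peak in 5 lists, and of 5 enterocyte markers none had. The deleted gene *Cars2* had no peak within 10 kb in any list, so these lists do not check the genotype. In the list labelled EBF2 Cre replicate 1 the peaks are named after a mouse line (Cars2AKO) instead of BAC, and the label was followed.

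Of the 9 genes, 2 had a peak within 10 kb, *Cyp3a41a* and *Cyp3a41b*, and both had one in all 8 lists. Over all protein-coding genes, 3.6% had a peak within 10 kb in all 8 lists and 8.89% in at least 1. The other 7 *Cyp3a* genes had no peak within 10 kb in any list. With the peak in every list, no member had EBF2 peaks in the 2 Vec lists and in no Cre list, the pattern of 0.0457% of all genes, or in the 2 Cre lists and in no Vec list, the pattern of 0.132%. For H3K27ac the same counts were 0 of 9 members in each direction, against 0.178% and 0.101% of all genes.

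Each list held 1 wide peak that reached *Cyp3a41a* and ran to or towards *Cyp3a41b*, and the EBF2 Vec lists held narrow peaks beside it. In EBF2 Vec replicate 1 it was 146 kb wide (chr5:145566151-145712156), with a fold of 6.45 over the caller's background. In EBF2 Vec replicate 2 it was 127 kb wide (chr5:145587801-145715042), with a fold of 5.03. In EBF2 Cre replicate 1 it was 150 kb wide (chr5:145563887-145713699), with a fold of 6.26. The 2 Cre replicates differed mainly at the high-coordinate edge, and in EBF2 Cre replicate 2 the peak was 137 kb wide (chr5:145565081-145701698), with a fold of 5.64. These deposited folds were of similar size in Vec and Cre, and the smallest was that of EBF2 Vec replicate 2. They fit 1 added to both fragments and background, which lowers a fold most where the background is low. The plain ratio of fragments to background was largest in EBF2 Vec replicate 2 (11 over 1.39), followed by Vec replicate 1 (53 over 7.38). It was smaller in Cre replicate 1 (57 over 8.26) and Cre replicate 2 (54 over 8.76). This order was not tested.

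At their highest points these EBF2 peaks rested on 53 and 11 overlapping fragments in Vec replicates 1 and 2, and on 57 and 54 in Cre replicates 1 and 2. The fragments were worked back from the deposited fold and p-value, which fitted a whole number of fragments for 95.4 to 99.8% of the peaks of each EBF2 list. The wide peak was not extreme in its lists. Its fold was above that of 71.7 to 83.0% of the peaks in the 4 EBF2 lists, and 16.7 to 23.6% of peaks were wider.

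For H3K27ac the peak was 141 kb wide in Vec replicate 1 (chr5:145563610-145704507), and 136 kb in Vec replicate 2 (chr5:145563803-145699609). It was 139 kb wide in Cre replicate 1 (chr5:145566260-145705751), and 138 kb in Cre replicate 2 (chr5:145566340-145704268). The folds, which are means over the region in these lists, were 3.77 and 3.42 in Vec and 3.53 and 3.20 in Cre. The ranges of the 2 groups overlapped in both width and fold. Since the values of the H3K27ac lists are means and those of the EBF2 lists are taken at the summit, they were not compared between antibodies.

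The stretch under peaks in all 8 lists was 112 kb long (chr5:145587801-145699609). It took in the last 5.56 kb of *Cyp3a41a*, at the 3′ end of the gene, the whole of the pseudogene *Cyp3a63-ps* (chr5:145624095-145647907) and the pseudogene *Selenok-ps7*. The remaining 81.7 kb, 73.1% of it, held no annotated gene. It began 3.07 kb beyond the start of *Cyp3a41b* and held no part of that gene, because the peak of EBF2 Vec replicate 2 began there.

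**Figure D2:**
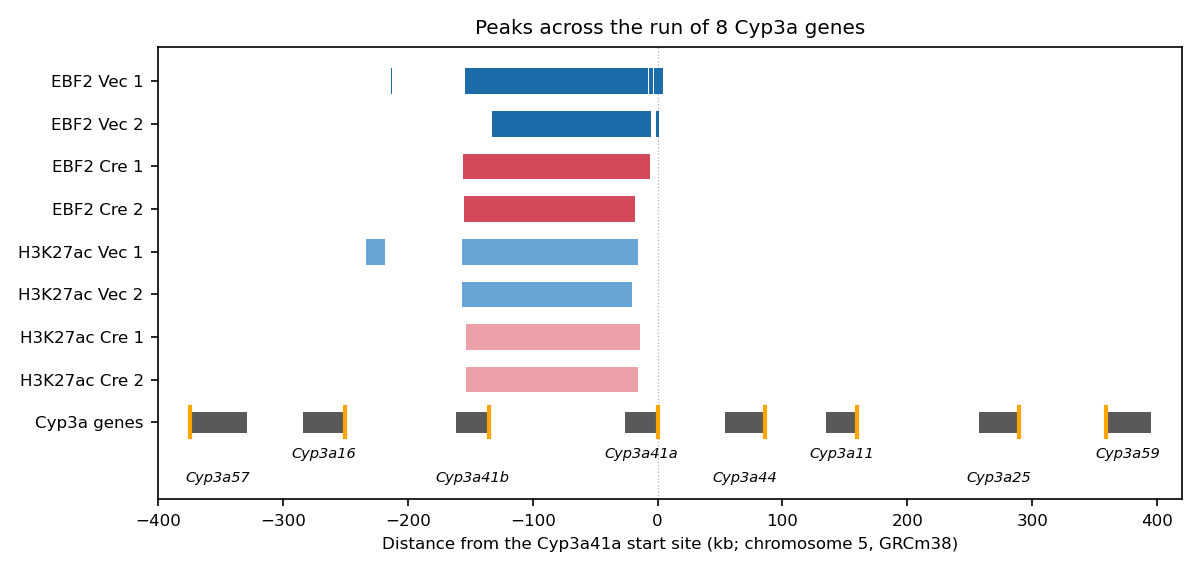
Peaks of the 8 lists (bars; blue Vec, red Cre, darker EBF2, lighter H3K27ac) and the run of 8 *Cyp3a* genes (grey, start sites in orange), by distance from the *Cyp3a41a* start site in kb. A wide peak of 127 to 150 kb runs across most or all of the gap between *Cyp3a41b* and *Cyp3a41a* and into *Cyp3a41a* in every list, and into *Cyp3a41b* in all but EBF2 Vec replicate 2, and the other 6 genes of the run have no peak within 10 kb.

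The lists differed at the start site of *Cyp3a41a*. In EBF2 Vec replicate 1, a peak of 6.76 kb (chr5:145717493-145724251) covered the start site and the whole promoter printed above, with a fold of 2.39 and 19 fragments at its summit over a background of 7.38. In EBF2 Vec replicate 2, a peak of 2.19 kb (chr5:145719097-145721287) covered them as well, with a fold of 2.93 and 6 fragments at its summit over a background of 1.39. By coordinate, the summit of replicate 1 was at 0.113 kb from the start site, within the promoter. That of replicate 2 was at -0.863 kb, inside the gene and outside the printed promoter. With 1 added to fragments and background, both folds lie below the plain ratio, and that of replicate 2 by more. Neither EBF2 Cre list had a peak over the start site. The nearest Cre peak ended 6.44 kb from the start site in replicate 1 and 18.4 kb in replicate 2.

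By score, these start-site peaks stood below the middle of their lists. The peak of Vec replicate 1 had a −log10 q-value of 2.60, and 43.9% of the peaks in that list scored lower. That of Vec replicate 2 had a −log10 q-value of 1.67, and only 0.75% of the peaks in that list scored lower. EBF2 Vec replicate 1 held 1 more peak in the gene (chr5:145713285-145716083), with a fold of 2.27 and 18 fragments. A peak missing from a Cre list says that the stretch did not pass the caller's threshold there, and gives no level. With peaks that scored at least 29, the median of the EBF2 lists, neither start-site peak remained and no *Cyp3a* promoter had the pattern of both Vec lists alone.

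EBF2 peaks covered a promoter in the 2 Vec lists and in no Cre list for 1 of the 9 *Cyp3a* genes, *Cyp3a41a*, and for 2 of the 17492 protein-coding genes that have at least 1 of the 21263 promoters, 0.0114%. The other gene was *Gm51596*, which is named because the count is small. The number of genes with this pattern over the remaining lists was 5 without Vec replicate 1, 17 without Vec replicate 2, 3 without Cre replicate 1 and 8 without Cre replicate 2. Leaving out a library can only keep or raise this number and cannot remove *Cyp3a41a*, so it is no check of stability. No H3K27ac list had a peak at this start site, and the H3K27ac peaks ended 14.4 to 20.5 kb from it in the gene.

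**Figure D3:**
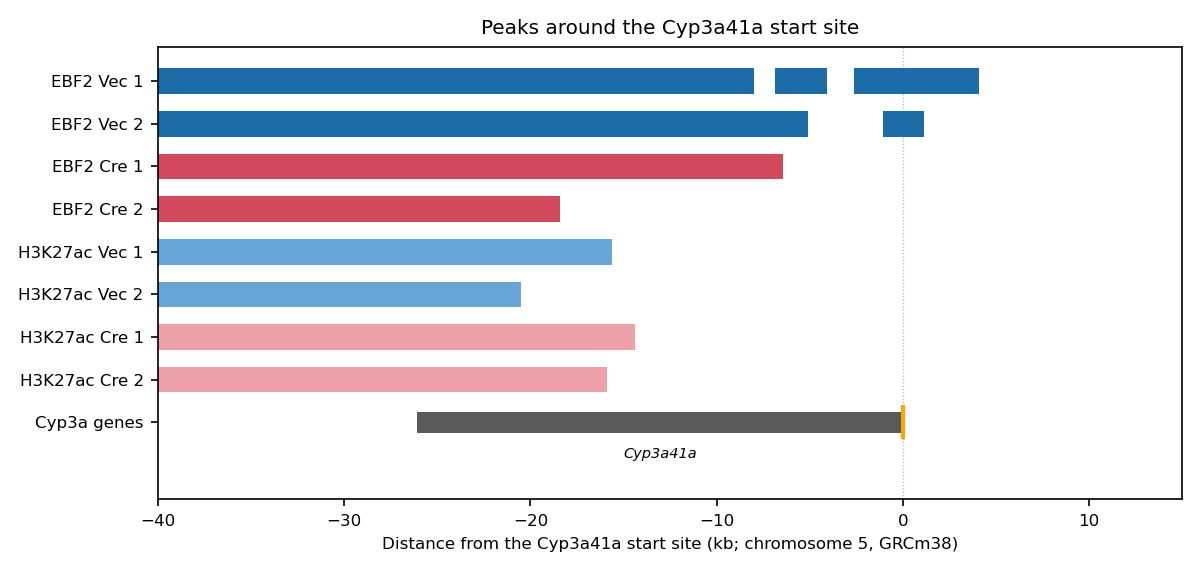
Peaks from 40 kb on the gene's side of the *Cyp3a41a* start site to 15 kb beyond it, with the 8 lists as bars and the gene in grey (distance in kb, start site in orange at 0). Both EBF2 Vec lists have a separate peak over the start site, and the peaks of the other 6 lists end 6.44 to 20.5 kb short of it.

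At the promoter of *Cyp3a41b* the lists were arranged otherwise. The wide peak covered that promoter whole in 7 of the 8 lists, in all 4 H3K27ac lists, both EBF2 Cre lists and EBF2 Vec replicate 1. In EBF2 Vec replicate 2, which had the lowest background of the 4 EBF2 lists, it began 3.07 kb away. The part of depth in this difference was not tested.

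The stretches with EBF2 in the 2 Vec lists and in no Cre list came to 3.53 kb in the run (chr5:145713700-145715042 and chr5:145719097-145721287), 2.21% of the 160 kb under any EBF2 peak. Over the whole lists this share was 0.105%. The total was 10.2 kb without Vec replicate 2 and 14.4 kb without Cre replicate 1, and 3.53 kb without either of the other libraries. Leaving out a library can only keep or lengthen such a total, in either direction, so these values do not measure stability. In the opposite direction, 1.07 kb at the other edge of the wide peak (chr5:145565081-145566150), within *Cyp3a41b*, had EBF2 in the 2 Cre lists and in no Vec list, 0.669% of the length in the run against 2.86% over the whole lists. Without Vec replicate 1 this length was 22.7 kb, and without Cre replicate 2 it was 2.26 kb. EBF2 was in all 4 lists over 114 kb, 71.2% of the length in the run against 66.8% over the whole lists.

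For H3K27ac, 2.46 kb (chr5:145563803-145566259) within *Cyp3a41b* was under peaks in the 2 Vec lists and in no Cre list, 1.55% of the 158 kb under any H3K27ac peak of the run against 2.53% over the whole lists. No stretch of the run was under H3K27ac peaks in the 2 Cre lists and in no Vec list, where the whole lists had 0.516%. The 4 lists shared 133 kb, 84.3% of the length in the run against 78.9% over the whole lists.

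Of *Cyp3a41a* itself, 90.3% and 84.5% lay under EBF2 peaks in Vec replicates 1 and 2, and 75.3% and 29.3% in Cre replicates 1 and 2. The means were 87.4% ± 4.11 in Vec and 52.3% ± 32.5 in Cre (SD, n = 2). Both Vec values were above both Cre values, and Cre replicate 2 was far below Cre replicate 1. Of the 1127 genes with EBF2 peaks in the gene, 1.24% were higher in both Vec than in both Cre lists. H3K27ac peaks lay over 40.1% and 21.3% of *Cyp3a41a* in Vec and over 44.9% and 39.2% in Cre, and these values overlapped.

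Of *Cyp3a41b*, 71.3% and 0% lay under EBF2 peaks in Vec replicates 1 and 2, and 80.0% and 75.4% in Cre. Both Cre values were above both Vec values, as in 6.39% of the genes with EBF2 peaks, and the gap between the means rested mostly on Vec replicate 2. H3K27ac peaks lay over 81.0% and 80.3% of *Cyp3a41b* in Vec and over 70.9% and 70.6% in Cre. The H3K27ac means were 80.7% ± 0.524 in Vec and 70.7% ± 0.217 in Cre (SD, n = 2), and the groups did not overlap, as in 4.55% of the 1671 genes with H3K27ac peaks in the gene. With 2 libraries against 2, an exact permutation test cannot give a p below 0.33, so that test cannot pass 0.05 for any value here, and these shares were not tested.

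**Figure D4:**
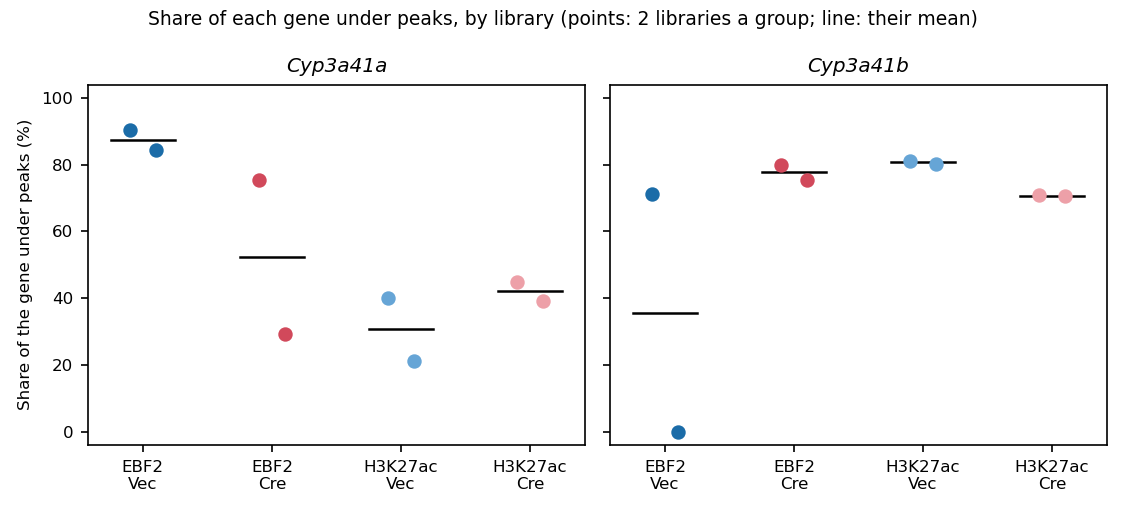
Share of *Cyp3a41a* and *Cyp3a41b* under peaks (%, y axis) in each library, by antibody and cell line; points are the 2 libraries of a group and lines their means. The EBF2 Vec points of *Cyp3a41a* (84.5 and 90.3%) lie above the Cre points, and EBF2 Vec replicate 2 is at 0% for *Cyp3a41b*.

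The windows of the 9 genes, each gene with 10 kb on both sides, came to 469 kb. EBF2 peaks covered 66.2 and 40.1 kb of them in Vec and 60.5 and 47.3 kb in Cre, or 53.2 ± 18.5 kb against 53.9 ± 9.33 kb (SD, n = 2). The difference of 0.717 kb was far within the spread between libraries. H3K27ac peaks covered 51.6 and 46.5 kb in Vec and 50.2 and 48.6 kb in Cre, or 49.0 ± 3.60 kb against 49.4 ± 1.11 kb (SD, n = 2). The difference of 0.358 kb was also within that spread. With peaks of any width and at least 1 base of overlap, the number of genes with a peak was 2 in every library of both antibodies.

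The members with no peak lay at different distances from one. *Cyp3a16* came closest, 16.4 kb from a peak of H3K27ac Vec replicate 1 (chr5:145486183-145502117) and 36.7 kb from one of EBF2 Vec replicate 1 (chr5:145506420-145507446). Both of these peaks touched the pseudogene *Cyp3a58-ps*, and in the other 6 lists the nearest peak to *Cyp3a16* was 94.1 to 118 kb away. *Cyp3a44* lay 49.7 to 74.4 kb from the nearest peak and *Cyp3a57* 95.3 to 197 kb. *Cyp3a11* was at least 130 kb away in every list, *Cyp3a25* at least 253 kb and *Cyp3a59* at least 355 kb. *Cyp3a13* lay 95.1 to 100 kb from the nearest peak.

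Most genes around the family had no peak either. The 10 protein-coding genes next to the run, 5 on each side from *Atp5j2* to *Cdk8*, had none within 10 kb in any list. Of the 10 next to *Cyp3a13*, the 3 *Smok3* genes (*Smok3a*, *Smok3b* and *Smok3c*), had a peak in all 8 lists, and the other 7 had none.

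**Figure D5:**
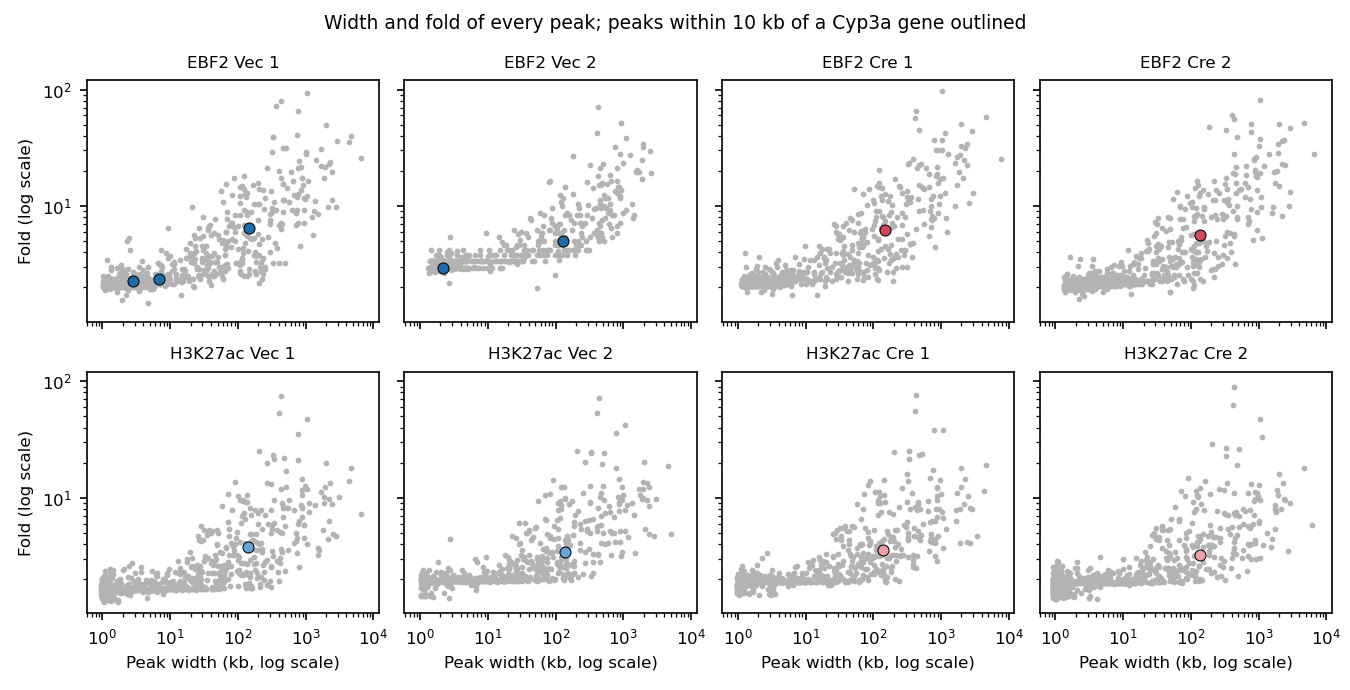
Fold against width of every peak in each of the 8 lists (both axes logarithmic, width in kb), with the peaks within 10 kb of a *Cyp3a* gene outlined in colour. The wide *Cyp3a41* peaks (127 to 150 kb) lie within the cloud of wide peaks of each list. The narrow ones of EBF2 Vec have folds of 2.27 to 2.93.

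The genes that work with CYP3A enzymes were taken from lists of the pathway. Of these 67 genes, 9 had a peak within 10 kb in at least 1 list, beside 8.89% of all protein-coding genes, and 2 had one in all 8, beside 3.6%. None of the 12 xenobiotic receptors and their partners, *Nr1i2*, *Nr1i3* and *Rxra* among them, had a peak in any list. Of the 4 electron donors, *Cyb5a*, which encodes cytochrome b5, had a peak in H3K27ac Cre replicate 2 only. Of 25 other drug-metabolizing P450 genes, *Cyp2b13* had a peak in all 8 lists and *Cyp2c40* in EBF2 Cre replicate 1 only. Of 9 P450 genes of steroid and bile acid synthesis, *Cyp21a1*, which encodes the steroid 21-hydroxylase, had a peak in 7 lists, all but EBF2 Vec replicate 2.

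Of 17 genes of conjugation and transport, 5 had a peak in at least 1 list. *Gsta1*, a glutathione transferase gene, had one in all 8, and *Gstm1* in H3K27ac Cre replicate 2 only. *Ugt1a10*, *Ugt1a6b* and *Ugt1a6a*, which encode glucuronosyltransferases and overlap each other, had a peak in both EBF2 Vec lists, neither EBF2 Cre list and all 4 H3K27ac lists. Over the 4 EBF2 lists the pathway genes with a peak numbered 6 and 5 in Vec and 4 and 3 in Cre. Without the *Ugt1a* genes, which share 1 locus, they numbered 3 and 2 in Vec and 4 and 3 in Cre. Over all protein-coding genes, 5.13% and 3.85% had an EBF2 peak in Vec and 5.17% and 4.95% in Cre. Over the H3K27ac lists the pathway genes with a peak numbered 6 and 6 in Vec and 6 and 8 in Cre, beside 6.93% and 5.60% of all protein-coding genes in Vec and 5.80% and 7.20% in Cre.

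A peak in all 8 lists, the pattern of *Cyp3a41a*, was found at 785 protein-coding genes besides the *Cyp3a* members, and at 542 of them the share of the gene and its 10 kb sides under peaks did not vary. Among the rest, the genes whose share varied most like that of *Cyp3a41a* over the 8 lists were *Gm21638* on chromosome Y (Pearson r = 0.784), *Slc22a29*, an organic anion transporter family gene (r = 0.624), and *Ifi205* (r = 0.550). *Gm7592* (r = 0.511) and *Gm2427* (r = 0.509) followed. These correlations over 8 lists, which share libraries and depth, are descriptions only.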

How the data were processed

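EBF2 and H3K27ac were profiled by Cut & Tag in Vec and Cre BAC, 2 libraries each, and groups were taken from the labels. The submitters' processing notes name bcl2fastq 2.17, Trimmomatic 0.33, HISAT2 2.2.1, MACS2 2.2.7 and the build mm10. Caller settings, control library and treatment of duplicate or multiply matching reads are not given in the sources used here. The authors deposited 1 peak list per library. The deposited score is 10 times the −log10 q-value, cut to an integer. The deposited fold is a ratio to the caller's background, and the EBF2 values fit 1 added to both terms of that ratio. The deposited −log10 p-value and q-value are those of the caller. In the H3K27ac lists fold, p-value and q-value are means over each region. The EBF2 lists also give the summit, another deposited column. Total reads per library are unknown, so depth was judged from the EBF2 background (10th percentile of recovered values).

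Genes, promoters and coordinates were those of RefSeq, GRCm38.p6. All 9 members and all listed genes matched by symbol. A gene had a peak where at least 1 base of a peak touched the gene or 10 kb on either side. Promoters were aligned globally with Biopython 1.88. Fragments at EBF2 summits were solved from fold and p-value within 0.002 on the −log10 scale. An exact permutation test over libraries was run on the H3K27ac counts and lengths, but with 2 against 2 it cannot pass 0.05 and nothing rests on it. EBF2 values are described without a test. Overlap code was tested on simulated lists. Scripts ran in Python 3.11.15 with scipy 1.17.1, pandas 2.3.3, matplotlib 3.10.9 and numpy 2.4.6. Genes named by rule were all members, the 5 nearest genes on each side, pathway genes with a peak and the 5 genes most like *Cyp3a41a*. Others are named as examples of the receptor and marker lists, as markers with a peak, as pseudogenes under peaks or as the deleted gene. *Por* is named as an electron donor, and *Gm51596* because the count it belongs to is small. Members and lists were chosen with earlier results of these data known. Alternatives were other margins, a score limit, narrow peaks only, a half-overlap rule, merging of peaks within 500 bp, leaving out each library, and a replicate block.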

Additional observations from a re-analysis of the deposited data

How the results depend on the processing

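The number of members with an EBF2 peak did not differ between Cre and Vec with 10 kb margins. The mean difference (Cre minus Vec) was 0.5 with the gene alone or a 3 kb margin, because EBF2 Vec replicate 2 then lost *Cyp3a41b*, -1 with a 50 kb margin, where *Cyp3a16* and *Cyp3a44* came within reach in Vec replicate 1, and -1 with peaks of 10 kb or less. Under that last setting 1 member, *Cyp3a41a*, had EBF2 peaks in the 2 Vec lists and in no Cre list, and the difference in EBF2 length was -5.87 kb in place of 0.717 kb. For H3K27ac, a 50 kb margin gave a difference of -0.5 members and of -7.61 kb in place of 0.358 kb. With the gene alone or a 3 kb margin, the mean number of members with an EBF2 peak was 1.5 in Vec and 2 in Cre. The mean number of members fell below 2 in both Vec and Cre under 2 other settings. Under the stricter overlap rule it was 1.5 for EBF2 and 1 for H3K27ac, in Vec and in Cre alike. With peaks of 10 kb or less it was 1 in Vec and 0 in Cre for EBF2, and 0 in both for H3K27ac. The exact test could pass 0.05 under none of these settings, so its p-values say nothing of stability. Leaving out 1 library at a time, the EBF2 length difference ranged from -12.3 kb (without Vec replicate 2) to 13.8 kb (without Vec replicate 1), and the H3K27ac one from -2.19 to 2.90 kb, so neither has a stable direction. With only peaks that scored at least the median of their antibody, the number of *Cyp3a* promoters under EBF2 peaks in the Vec lists alone fell from 1 to 0, and the EBF2 length difference was 6.59 kb. The counts of members in both lists of one group and neither of the other stayed at 0 under all other alternatives run.

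With the replicate block, the mean differences were 0.717 kb for EBF2, with no test, and 0.358 kb for H3K27ac, as without it. The exact test over sign flips, run for H3K27ac alone, cannot go below p = 0.5. Same-numbered libraries deviated together with a correlation of 0.0923 for EBF2 and -0.126 for H3K27ac over 1945 genes, and the crossed pairing of H3K27ac, added after the data were seen, gave 0 calls, as 2 pairs cannot give any. The leave-one-out values of promoters and of the stretches, and the score limit for promoters, were also added after the data were seen. Total reads are unknown. Among the EBF2 lists the background was lowest in Vec replicate 2, whose peak at the *Cyp3a41a* start rests on 6 fragments.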
